A study of Mus musculus with 16 samples.

Results

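A set of 10 genes that astrocytes are known to induce when they become reactive, other than the genes of filaments, complement and antigen presentation, were read in whole brain RNA to compare Tecpr2 ki/ki with wt/wt mice. They were chosen by name, and all 10 were found among the 55404 genes measured. Serpina3n, Lcn2, S100a6 and Timp1 encode proteins found outside the cell or able to leave it, Cd44, Osmr and S1pr3 encode receptors, and Steap4, Cd109 and Emp1 encode other membrane proteins. RNA of whole brain was sequenced from 8 wt/wt and 8 Tecpr2 ki/ki animals, untreated males aged 5 months. The Tecpr2 ki/ki mice were homozygous for the L1152fs knock-in, a frameshift allele made by CRISPR/Cas9 editing of C57BL/6J zygotes and carried in every cell of the body, and the wt/wt mice carried no edited allele. The comparison asked whether loss of Tecpr2, a protein of the autophagy pathway, moved these transcripts in the brain as a whole.

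Astrocytes are the glial cells that feed neurons, clear transmitter and line blood vessels. After injury, infection or nerve cell loss they become reactive: they enlarge, make more of the filament protein Gfap, and switch on genes for secreted inhibitors, adhesion molecules and cytokine receptors. Much of this program in mice is driven by cytokines of the interleukin 6 family, which signal through the shared receptor chain Il6st and the transcription factor Stat3. Serpina3n, a secreted inhibitor of serine proteases, and Lcn2, a secreted protein that binds iron-carrying siderophores, are among the most widely used markers of the state.

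The labels were borne out by the edited gene. Tecpr2 had normalized values of 274 to 320 in the Tecpr2 ki/ki mice and 928 to 1002 in the wt/wt mice, which gave a log2 fold change of -1.68 (SE 0.0363, limma). The values are whole numbers that skip or repeat at low levels as read counts divided by a factor per library and rounded would, so that a value of 1 stands for about 1 read. Totals over all genes were between 11964284 and 12252324 per mouse, and the reads on genes were estimated at 9.23 to 15.39 megareads. All 15 astrocyte, 10 neuron and 10 oligodendrocyte markers checked were expressed highly enough to be tested, as whole brain requires. Whole brain RNA gives a single value over all regions and cell types, and fewer cells of a type cannot be told apart from less RNA per cell.

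None of the 10 genes passed the test between genotypes. Of the 23244 genes that could be tested across the 16 mice, 31 (0.133%) had an adjusted p under 0.1, the threshold of the study (limma with Benjamini-Hochberg adjustment), and 22 of these (0.0946%) were higher in Tecpr2 ki/ki. Of the 10, 9 could be tested and 0 were called, while 1 had an unadjusted p under 0.05, where 6.08% of all tested genes did. No other tool was run across all genes, and an exact permutation test of each gene also gave 1 of 10 under 0.05. The gene was Serpina3n in both, and it was also the 1 gene of the 9 with an unadjusted p under 0.01, which 1.56% of all tested genes had. Of the 9, 5 had a log2 fold change above 0 and 4 below 0, and 49.5% of all tested genes were above 0. The genotypes overlapped for all 10 genes, and 0.086% of tested genes had genotypes without overlap. The median log2 fold change was 0.08 over the 9 and -0.001 over all tested genes, and that of the 9 was as low as 0.03 when 1 mouse, wt/wt mouse 7, was left out. In the same mice Gfap rose from 1411 ± 56.2 to 2114 ± 102 (SD, n = 8), a log2 fold change of 0.58 with a 95% confidence interval from 0.53 to 0.64 (limma, adjusted p = 4.67e-27).

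**Figure D1:**
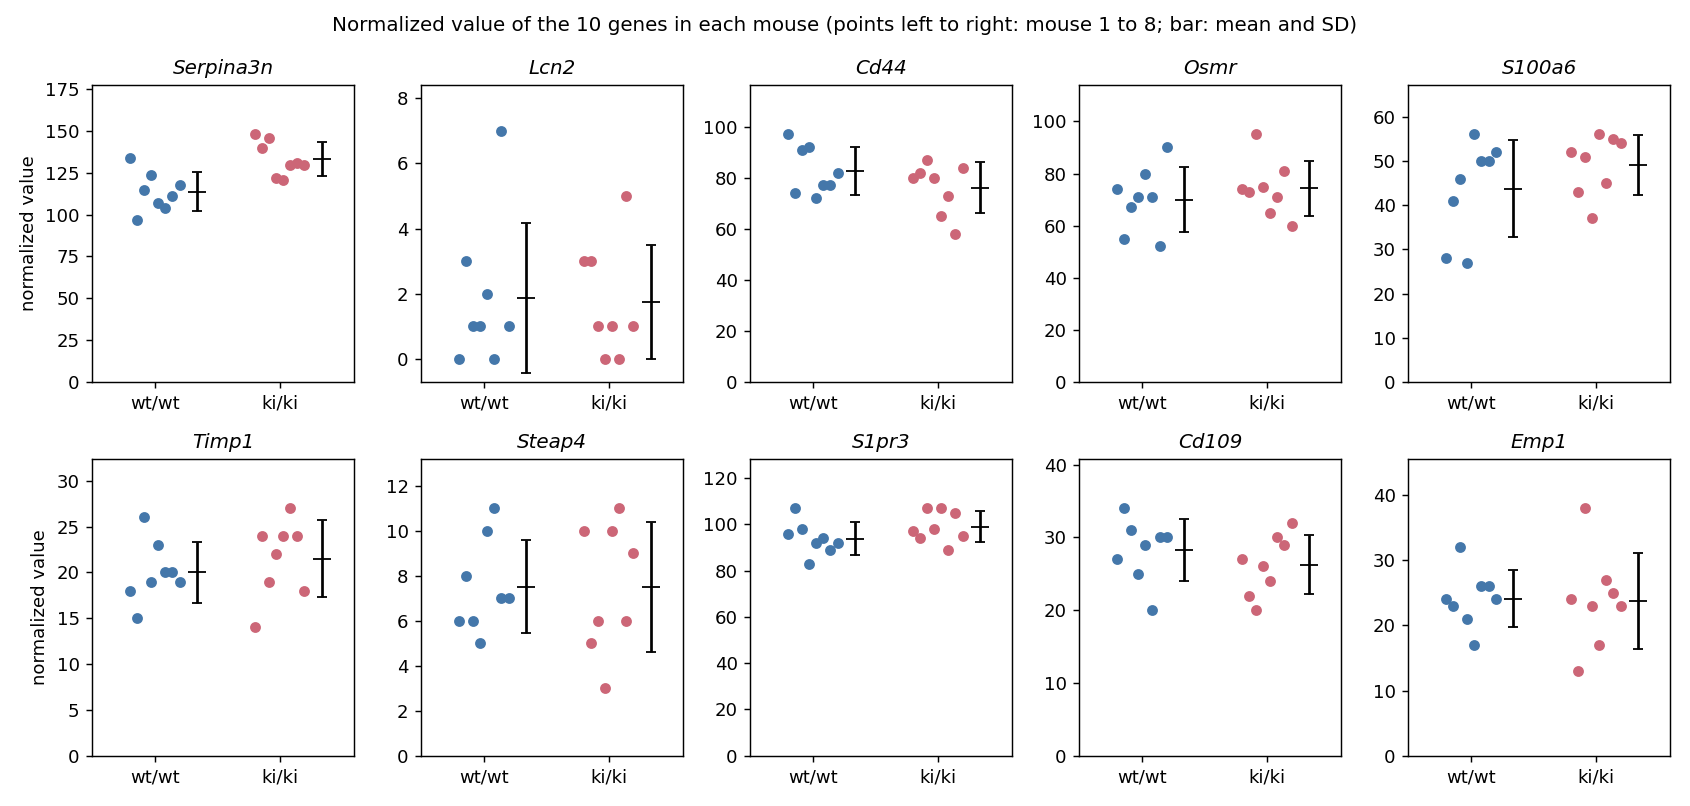
Normalized value of each of the 10 genes (vertical axes, each with its own scale) in the 8 Tecpr2 ki/ki and 8 wt/wt mice, with 1 point per mouse in the order of the labels' numbers and bars for mean and SD. The genotypes overlapped in all 10 panels, and the widest separation was that of Serpina3n, where 3 Tecpr2 ki/ki mice lay above every wt/wt mouse.

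Serpina3n belongs to a cluster of near copies on chromosome 12, and reads from these could be assigned to the wrong copy, so its sequence is shown first. The gene lay at chr12:104406729-104414329 on the plus strand of GRCm38. Of its 2034 words of 31 transcript bases, 440 (21.6%) also occurred in transcripts of other genes, the largest share with Serpina3g (5.9%), whereas the other members shared at most 0.457% of theirs. The coding sequence had 1257 bases and was 85.4% identical to that of Serpina3c, 85.2% to that of Serpina3m and 83.6% to that of Serpina3f. Windows of 90 coding bases that aligned without gaps were compared with Serpina3c, Serpina3f, Serpina3g and Serpina3m only, of 9 copies aligned. By differences summed over the copies compared, the stretch most like them was bases 796 to 885, in 1 exon, at chr12:104411285-104411374. It is printed 5′ to 3′ on the coding strand from GRCm38, with capitals in the copies for bases that differ from Serpina3n.

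Serpina3n: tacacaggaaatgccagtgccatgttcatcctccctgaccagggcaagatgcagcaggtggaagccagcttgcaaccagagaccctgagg
Serpina3f: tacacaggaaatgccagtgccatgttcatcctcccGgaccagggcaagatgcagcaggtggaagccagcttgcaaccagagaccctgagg
Serpina3g: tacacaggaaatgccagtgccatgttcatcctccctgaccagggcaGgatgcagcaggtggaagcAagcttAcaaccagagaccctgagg
Serpina3m: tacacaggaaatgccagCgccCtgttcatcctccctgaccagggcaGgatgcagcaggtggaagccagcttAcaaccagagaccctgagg
Serpina3c: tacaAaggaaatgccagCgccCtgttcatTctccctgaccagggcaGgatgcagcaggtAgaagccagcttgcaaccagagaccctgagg

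Serpina3f differed from Serpina3n at 1 of these 90 bases, Serpina3g at 3, Serpina3m at 4 and Serpina3c at 6. Elsewhere, at bases 986 to 1085, Serpina3g was identical to Serpina3n over a run of 100 bases, longer than this window. The stretch least like these copies was bases 649 to 738, at chr12:104411138-104411227. There Serpina3f and Serpina3c each differed at 26 bases and Serpina3g and Serpina3m at 27. Serpina3n and Serpina3g are shown here to mark how far the copies part within the same exon.

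Serpina3n: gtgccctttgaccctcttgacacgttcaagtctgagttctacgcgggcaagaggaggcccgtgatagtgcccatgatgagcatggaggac
Serpina3g: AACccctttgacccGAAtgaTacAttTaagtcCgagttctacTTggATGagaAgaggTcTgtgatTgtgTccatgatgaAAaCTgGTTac

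The copies were nearly silent in these brains. Serpina3g was read at 1 to 4 in the Tecpr2 ki/ki mice and at 1 to 7 in the wt/wt mice, with means of 2.375 and 4. Serpina3c ran from 0 to 4 and from 0 to 2, Serpina3f and Serpina3m had means of at most 0.375, and Serpina3h and Serpina3k were at 0 in every mouse. How the authors' counting divided reads that fit several copies was not tested.

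Serpina3n, the secreted protease inhibitor, had the smallest p of the 10. Its values were 121 at the lowest, 130.5 at the median and 148 at the highest in the Tecpr2 ki/ki mice, and 97, 113 and 134 in the wt/wt mice. All 8 Tecpr2 ki/ki mice were above the wt/wt median and 3 were above every wt/wt mouse, while 6 wt/wt mice were below every Tecpr2 ki/ki mouse. The means were 133.5 ± 10.2 and 113.75 ± 11.7 (SD, n = 8 each), and the log2 fold change was 0.23 (SE 0.0734, 95% confidence interval 0.09 to 0.38). This corresponds to a 1.17-fold level with an interval from 1.06 to 1.30. The unadjusted p was 0.00237 in the limma fit and 0.00357 in the exact permutation test, and the limma p adjusted over all tested genes was 0.436. Over the 22 alternative settings the adjusted p lay between 0.252 and 0.642 and the log2 fold change between 0.20 and 0.27. At the spread of this gene, a 1.23-fold difference would have been the smallest to be called.

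Serpina3n lies 6.47 Mb from the edited Tecpr2 gene on the same chromosome, so its neighbourhood was looked at. Of 223 tested genes within 10 Mb of Tecpr2, Tecpr2 itself left out, 0 were called (limma) and 2 had an unadjusted p under 0.01, which is 0.897% against 1.56% of all tested genes. These were Serpina3n and Bcl11b, a transcription factor gene of deep cortical neurons, named here because the count was small. Higher levels in Tecpr2 ki/ki mice were seen for 118 of the 223 and lower ones for 105, with a median log2 fold change of 0.004. The part of the neighbourhood in the Serpina3n values was not tested beyond these counts.

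Lcn2 (chr2:32384633-32388252, GRCm38 as for all positions here), the siderophore-binding lipocalin, was close to absent. Its values were 0 to 5 with a median of 1 in the Tecpr2 ki/ki mice and 0 to 7 with a median of 1 in the wt/wt mice. Summed over the 8 mice these were 14 and 15, too few for the filter on low values, and the exact permutation p was 1.0. No fold change is given at this depth. The 10 neutrophil markers, of a blood cell that stores Lcn2, also failed the filter, with sums of 7 to 95 in the Tecpr2 ki/ki mice and 7 to 31 in the wt/wt mice. The highest Lcn2 value of each genotype, 5 and 7, was in its mouse 7, where these markers summed to 95 and 25, and their part in the Lcn2 values was not tested.

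S100a6 (chr3:90612882-90624181) encodes a small calcium-binding protein that is also found outside the cell. It was read at 37, 51.5 and 56 (lowest, median, highest) in the Tecpr2 ki/ki mice and at 27, 48 and 56 in the wt/wt mice. The genotypes shared the same highest value, and 2 wt/wt mice, at 27 and 28, were below every other mouse. The log2 fold change of 0.20 (SE 0.13) had an interval from -0.06 to 0.46 and a limma adjusted p of 0.901, and it was 0.11 without wt/wt mouse 1 or without wt/wt mouse 4. Of the other S100 genes looked at, S100a1 was at 246.75 and 227.25 with a log2 fold change of 0.12 (limma, unadjusted p = 0.0289, adjusted p = 0.775), S100a10 at 108.75 and 108.375, S100a16 at 352.5 and 348.5, and S100b at 1254.25 and 1209.88, with the mean of the Tecpr2 ki/ki mice first here and in the pairs of means that follow.

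Timp1 (chrX:20870166-20874735), a secreted inhibitor of matrix metalloproteinases, was low in both genotypes. Values ran from 14 to 27 with a median of 23 in the Tecpr2 ki/ki mice and from 15 to 26 with a median of 19.5 in the wt/wt mice. The lowest value of all was that of a Tecpr2 ki/ki mouse, and so was the highest. The log2 fold change was 0.09 with an interval from -0.24 to 0.42, and it ran from 0.04 to 0.17 as single mice were left out. Timp1 lies inside the locus of Syn1, a synapsin gene of neurons with a mean value of 3890, on the opposite strand and with 0 shared exon bases. Of the other inhibitors of the family, Timp2 was at 2614.62 and 2511.62 and Timp3 at 919.625 and 864.625 in the same order, and Timp4 at 587.75 and 566.5. Timp2 and Timp3 were chosen for mention after their values were seen, with log2 fold changes of 0.06 and 0.09 and limma adjusted p of 0.664 and 0.547.

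Of 16 protease genes read beside Timp1, Serpina3n and Lcn2, metalloproteinases and serine proteases, 12 were tested and 0 were called (limma). Of the 12, 9 were higher and 3 lower, with a median log2 fold change of 0.02, and 0 had an unadjusted p under 0.01. Not all of them are known targets of these members. Mmp9, a gelatinase, had means of 14.375 and 15.75, and Mmp14, a membrane-bound metalloproteinase, had 172 and 164.75. Ctsg and Gzmb, serine proteases of blood cells, had means of 0.25 or less.

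Cd44 (chr2:102811141-102901665), the cell surface receptor for hyaluronan and osteopontin, was read at 58, 80 and 87 (lowest, median, highest) in the Tecpr2 ki/ki mice and at 72, 79.5 and 97 in the wt/wt mice. Of the 3 receptor genes it alone had the lower mean in Tecpr2 ki/ki mice, 76.1 against 82.75. The log2 fold change was -0.12 (SE 0.0926) with an interval from -0.31 to 0.06 and an adjusted p of 0.902 (limma), so a rise of the size of Gfap's lay outside the interval. Its ligand Spp1, osteopontin, was at 216.875 and 217.375, and the hyaluronan synthases Has1 and Has3 were at 104.75 and 100.125 and at 180.125 and 184.75.

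Osmr (chr15:6813577-6874969), the receptor chain for oncostatin M, ran from 60 to 95 with a median of 73.5 in the Tecpr2 ki/ki mice and from 52 to 90 with a median of 71 in the wt/wt mice. The lowest value was a wt/wt mouse and the highest a Tecpr2 ki/ki mouse, and the rest were mixed. The log2 fold change was 0.09, with an interval from -0.11 to 0.29, and leaving out single mice took it from 0.03 to 0.15. Its ligand Osm had means of 0.875 and 0.5, too low to be tested. Il6st, the signalling chain that Osmr pairs with, was at 1504 and 1475.12, and Lifr, the receptor chain for leukaemia inhibitory factor, was at 1223 and 1219.75.

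S1pr3 (chr13:51408639-51422797), a receptor for the lipid sphingosine 1-phosphate, had the least variance between mice relative to counting noise. It was read at 89, 97.5 and 107 (lowest, median, highest) in the Tecpr2 ki/ki mice and at 83, 93 and 107 in the wt/wt mice. The log2 fold change was 0.08 with an interval from -0.08 to 0.23. It shares 45 exon bases with Gm32834 on the opposite strand, a gene with a mean value of 11.7. All 12 other genes of sphingosine 1-phosphate reception and turnover were tested, with 0 called (limma) and 0 at an unadjusted p under 0.01, and 6 were higher and 6 lower. S1pr1, a receptor of the same family, was at 1257.5 and 1266, and Sphk1, a kinase that makes the lipid, was at 41.5 and 45.5.

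Steap4 (chr5:7960457-7982213), a metalloreductase that reduces iron and copper, was barely above the filter, at 3 to 11 with a median of 7.5 in the Tecpr2 ki/ki mice and 5 to 11 with a median of 7 in the wt/wt mice. Both means were 7.5. The interval of its log2 fold change, from -0.58 to 0.48, was the widest of the 9. Only a 2.13-fold difference or more in value + 1 would have been called. Of 16 further genes of iron handling, 15 were tested and 0 were called (limma), with 6 higher and 9 lower and a median log2 fold change of -0.01, and 1 had an unadjusted p under 0.01. This was Tfrc, the receptor for transferrin, named because the count was small, at 1094.75 and 1170.88 with a log2 fold change of -0.10 and an adjusted p of 0.531.

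Cd109 (chr9:78615546-78716253), a membrane-anchored protein of the alpha-2-macroglobulin family that binds transforming growth factor beta, was at 20, 26.5 and 32 (lowest, median, highest) in the Tecpr2 ki/ki mice and at 20, 29.5 and 34 in the wt/wt mice. The log2 fold change was -0.10 with an interval from -0.39 to 0.19, and it lay between -0.17 and -0.05 when single mice were left out. Emp1 (chr6:135362545-135383173), a small membrane protein with 4 passes through the bilayer that is related to Pmp22, ran from 13 to 38 with a median of 23.5 in the Tecpr2 ki/ki mice and from 17 to 32 with a median of 24 in the wt/wt mice. Its lowest and highest values were both in Tecpr2 ki/ki mice, and the log2 fold change was -0.06 with an interval from -0.39 to 0.27. Of 39 paralogs of the 10 genes, 23 were tested and 0 were called (limma), with 12 higher, 11 lower and a median log2 fold change of 0.01. Timp3 was the 1 paralog with an unadjusted p under 0.01.

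**Figure D2:**
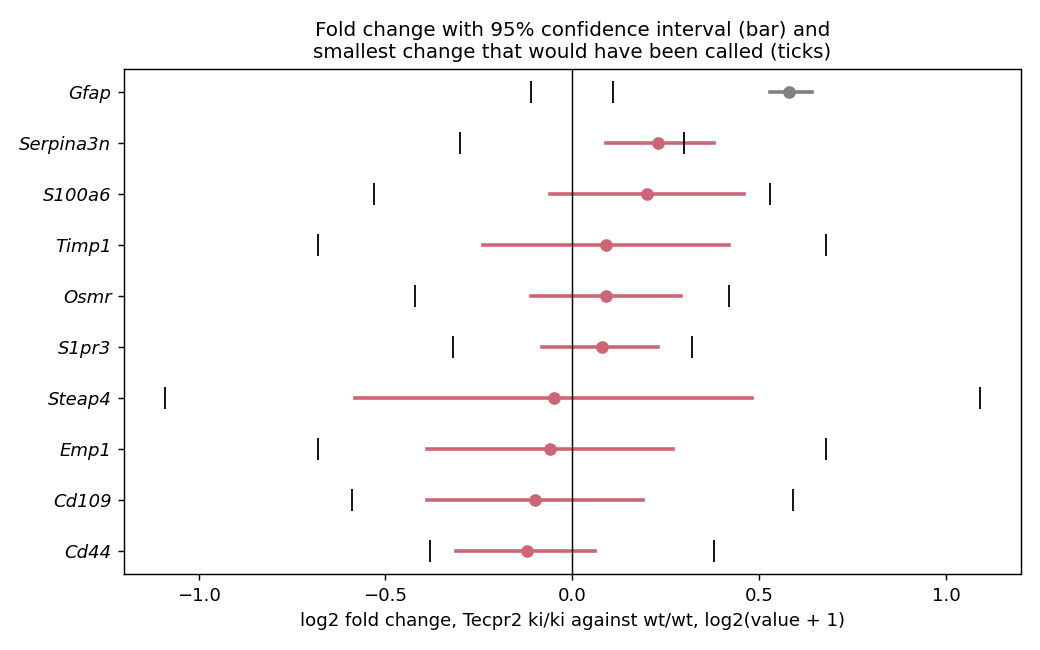
Log2 fold change of Tecpr2 ki/ki over wt/wt (horizontal axis, on the log2(value + 1) scale) for the 9 tested genes and, in grey, Gfap, with 95% confidence intervals as bars. The black ticks mark the smallest difference that would have been called at each gene's error, and all 9 estimates fell short of theirs while Gfap at 0.58 passed.

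For the 9 tested genes the variance between mice was 0.485 to 1.84 times that of counting noise, under 1 for 5 of them and highest for Osmr, S100a6 and Emp1, and the median over 10320 tested genes with mean values of 10 to 150 was 1.26. The smallest difference that would have been called, as a fold of value + 1, ran from 1.23-fold for Serpina3n to 2.13-fold for Steap4. On the log2(value + 1) scale, the upper limits of all 9 intervals nevertheless lay below the lower limit of Gfap's, 0.53. For Steap4, at a mean of 7.5, that scale understates changes. Its upper limit of 0.48 may therefore not lie below Gfap's on the scale of the values. For the 8 genes other than Serpina3n the limma adjusted p lay between 0.901 and 0.991.

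Because Gfap is the usual gauge of astrocyte reactivity, each gene was also set against it within each mouse. Gfap was chosen with its rise known, so these ratios describe how far the genes kept pace with it. The log2 ratio to Gfap was lower in Tecpr2 ki/ki mice for all 9 genes. With Gfap higher by 0.58, the ratio of an unchanged gene falls by that much. A lower ratio is therefore no evidence about the gene itself, and no p is given. The difference was least for Serpina3n, at -0.35, followed by S100a6 at -0.39. It was greatest for Cd44, at -0.71, and was -0.51 for S1pr3, -0.49 for Osmr and Timp1, -0.63 for Steap4, -0.64 for Emp1 and -0.68 for Cd109. In 3 of the ratios, those of Serpina3n, Cd44 and S1pr3, every Tecpr2 ki/ki mouse was below every wt/wt mouse. Gfap alone had no overlap either, at 1997 to 2323 in Tecpr2 ki/ki and 1300 to 1468 in wt/wt mice. The share of all tested genes that separate in this ratio was not counted, so the 3 cannot be said to stand out by it. All 9 ratios share the Gfap value of their mouse and are not independent.

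**Figure D3:**
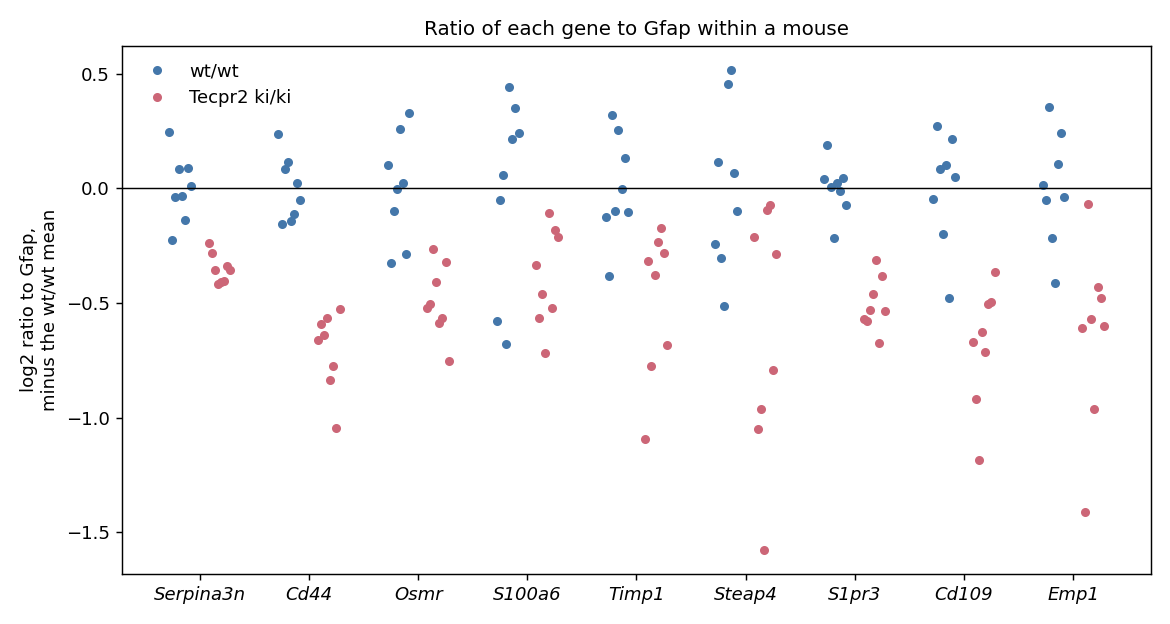
Log2 ratio of each of the 9 tested genes to Gfap within the same mouse, after subtraction of the wt/wt mean (vertical axis), with 1 point per mouse. The Tecpr2 ki/ki mice sat lower for every gene, by 0.35 on average for Serpina3n and by 0.71 for Cd44. Gfap's own rise of 0.58 lowers the ratio of any gene that did not change.

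Per length of exon, levels in these brains spanned a wide range. The length was that of all annotated exons of a gene together, which can exceed that of its main RNA. The order of genes depends on it, and the spread between mice does not cover this. The normalized value per kilobase over the 16 mice averaged 59.9 for Serpina3n, which was followed by S100a6, 23.4 for Timp1 and 21.6 for S1pr3. Cd44 averaged 11.7, Osmr 5.95, Emp1 4.03, Cd109 3.95, Steap4 2.38 and Lcn2 0.691. Serpina3n, whose mice ran from 47.0 to 71.7 per kilobase, did not overlap S100a6 (19.8 to 41.0), and Cd44 (8.56 to 14.3) overlapped neither S1pr3 (18.6 to 24.0) nor Osmr (4.29 to 7.84). The other neighbours in this order overlapped between mice. Serpina3n stood at the 64.7th percentile of tested genes by level per kilobase and Steap4 at the 3.05th.

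**Figure D4:**
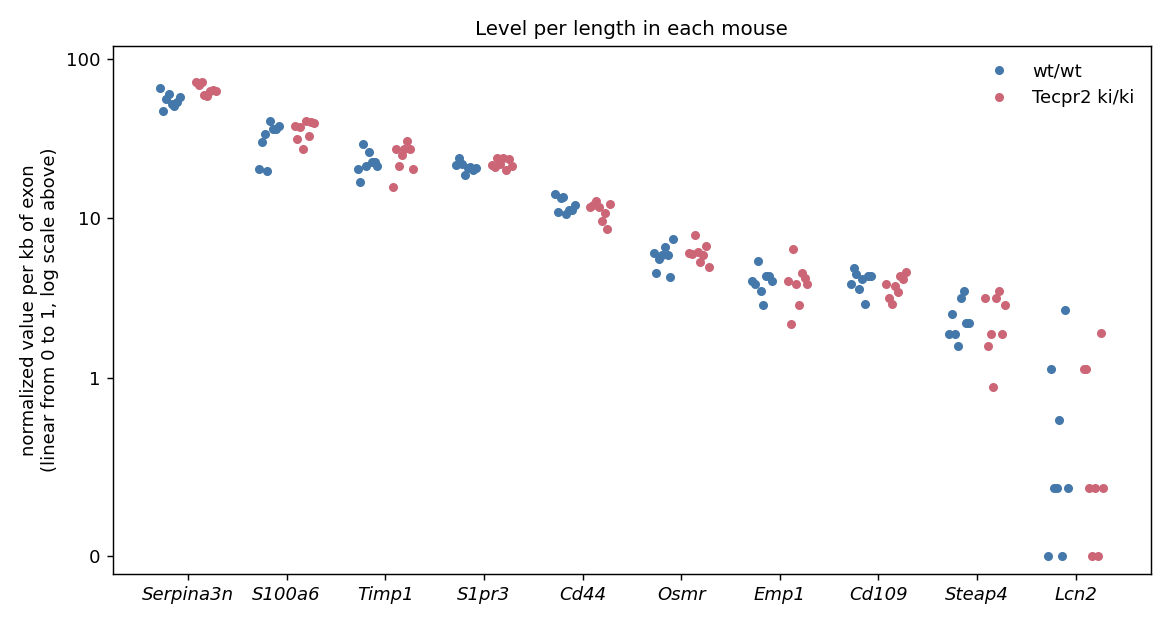
Normalized value per kilobase of exon for the 10 genes in each of the 16 mice (vertical axis, linear from 0 to 1 and logarithmic above). Serpina3n, at 47.0 to 71.7, stood above all others, and Lcn2 reached 0 in some mice.

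The wider reactive astrocyte lists gave no call beyond Gfap. Of the 13 pan-reactive genes, 7 of which are members here, 11 were tested and 1, Gfap, was called, with 9 of them higher than in wt/wt, 2 lower and a median log2 fold change of 0.09. The 5 tested genes that are not members, Gfap among them, had a median of 0.18. Among these, Hspb1, a small heat shock protein, was at 54.5 ± 6.89 and 48.5 ± 9.26 and Aspg, an asparaginase, at 33.875 ± 5.46 and 29.875 ± 5.91 (SD, n = 8 each). Both had a log2 fold change of 0.18, with adjusted p of 0.893 and 0.902 (limma). Vim, the filament protein vimentin, was at 434.375 and 421.125, and Cp, the copper carrier ceruloplasmin, at 258.625 and 253.875. Their log2 fold changes were 0.04 and 0.02. The 12 A1 genes, named for the response to inflammation, had 11 tested, with 5 higher, 6 lower and 0 called (limma), and 0 with an unadjusted p under 0.01. The 12 A2 genes, named for the response to ischaemia, which include Cd109 and Emp1, had 9 tested, with 2 higher, 7 lower and 0 called (limma), and 0 with an unadjusted p under 0.01.

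Ligands and receptors tied to the members counted 24, of which 20 were tested, with 14 higher, 6 lower and 0 called (limma), and 0 with an unadjusted p under 0.01. Of the 16 genes of Stat3 signalling all were tested, with 8 higher, 8 lower and 0 called (limma), and 1 had an unadjusted p under 0.01. This was Fosl2, an AP-1 family transcription factor, at 535.75 ± 51.5 and 583.125 ± 26.9 with a log2 fold change of -0.13 and an adjusted p of 0.555. Stat3 itself was at 581.5 and 563.625. Socs3, the feedback inhibitor that Stat3 induces, was at 30.75 and 23.875 with a log2 fold change of 0.36 and an adjusted p of 0.775 (limma), and was chosen for mention after its values were seen.

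Promoters of the members were read for the letters that Stat3 and other factors of this program are known to bind. RefSeq (GRCm38.p6) held windows of 300 bases, 250 before to 50 after the gene start, for 9 of the 10 genes, with 2 windows for Emp1. TTCNNNGAA, searched on both strands, was in the windows of 2 members, Steap4 and Emp1, and in 8.3% of all 32851 windows. TGANTCA, the AP-1 motif, was in those of 2 members, Emp1 and Osmr, and in 7.81% of all. An NF-kappaB motif of 10 letters, searched in the same way, was in those of 0 members and in 0.155% of all. The windows of Steap4, at chr5:7960222-7960521, and the first of Emp1, at chr6:135362681-135362980, both on the plus strand, are shown because they held matches to TTCNNNGAA, with matches in capitals.

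Steap4: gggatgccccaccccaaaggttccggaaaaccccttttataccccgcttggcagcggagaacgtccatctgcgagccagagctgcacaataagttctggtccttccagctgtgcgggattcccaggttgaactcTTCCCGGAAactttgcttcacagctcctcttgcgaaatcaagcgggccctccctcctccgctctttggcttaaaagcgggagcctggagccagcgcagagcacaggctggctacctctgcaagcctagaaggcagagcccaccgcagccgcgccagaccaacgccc
Emp1: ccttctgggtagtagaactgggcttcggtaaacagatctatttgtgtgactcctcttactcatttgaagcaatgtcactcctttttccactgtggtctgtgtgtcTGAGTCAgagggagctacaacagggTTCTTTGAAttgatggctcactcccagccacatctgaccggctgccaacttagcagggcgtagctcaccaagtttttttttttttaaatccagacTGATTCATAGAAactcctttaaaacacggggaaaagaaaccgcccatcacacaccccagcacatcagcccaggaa

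The Steap4 match begins at -116 from the gene start. In Emp1 the matches to TTCNNNGAA begin at -120 and -22 and those to TGANTCA at -145 and -25, and the last of each overlap, so that their letters form 1 run of capitals. A match is a description of these letters, and nothing here bears on whether a factor was bound. Neither gene differed beyond the spread between mice in this comparison.

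Members were also compared with each other among mice of the same genotype. Over the 16 mice, with genotype means subtracted, Pearson's r of log2(value + 1) over the 36 pairs of tested genes had a median of 0.0, and 17 pairs were above 0. The highest were Serpina3n with Cd44 at 0.66, S100a6 with Steap4 at 0.59 and Serpina3n with Osmr at 0.46, and the lowest was Cd44 with S100a6 at -0.56. These describe 16 libraries, and no p is given. The variance of Serpina3n, Timp1, Steap4, S1pr3 and Cd109 was at or under that of counting noise, so r near 0 for their pairs does not show that they vary independently. The highest pairs named here each hold Serpina3n or Steap4. The extremes of 36 values over 16 mice can also be large by sampling alone, which was not tested. The genes most like each of the 4 members with a mean of at least 50, the highest r among 13764 genes, were Tut1 (0.87), Asb13 and Epas1 (both 0.83) for Serpina3n. They were Syngr3 (0.90), Csf1 and Fam124a (both 0.83) for Cd44, Rnf10 (0.85), Abraxas1 (0.82) and Aes (0.81) for Osmr, and Ube2a (0.79), Trem2 (0.77) and Mppe1 (0.75) for S1pr3. The highest of 13764 values over 16 mice can be large by sampling alone, and whether these exceed that was not tested. For Serpina3n and S1pr3 the variance was only 0.979 and 0.485 times that of counting noise.

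Markers of the cell types in the tissue were read beside the members. Of 15 astrocyte markers, 2 rose, the water channel Aqp4 with a log2 fold change of 0.14 (limma, adjusted p = 3.75e-05) and the glutamate transporter Slc1a2 with 0.06 (adjusted p = 0.00229), and 12 were higher and 3 lower. Their summed value was 84675 to 87769 in the Tecpr2 ki/ki mice and 81788 to 86806 in the wt/wt mice. Of 12 microglia markers, 11 were higher and 0 were called (limma), with sums of 2672 to 2907 and 2507 to 2744, and 2 had an unadjusted p under 0.01. Among 10 neuron markers, 9 were lower and 1, Gad1, which makes the transmitter GABA, fell with a log2 change of -0.09 (limma, adjusted p = 0.0681). Their sums were 69402 to 71997 and 69704 to 74337.

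Markers of other cells that express members gave 0 calls (limma) in each list, and 0 had an unadjusted p under 0.01 except where given. Endothelial markers summed to 2985 to 3181 in the Tecpr2 ki/ki mice and 2944 to 3180 in the wt/wt mice, and meningeal fibroblast markers to 1580 to 1873 and 1528 to 1730. Markers of pericytes and smooth muscle summed to 2815 to 2990 and 2783 to 3004. Oligodendrocyte markers summed to 48321 to 54544 and 48588 to 54267, those of choroid plexus to 4579 to 5268 and 5108 to 5744, and ependymal ones to 272 to 308 and 249 to 307. These lists overlapped between genotypes. All 6 tested erythrocyte markers were higher in the Tecpr2 ki/ki mice, with sums of 253 to 390 and 183 to 369. All 5 tested markers of caudal brainstem and spinal cord were higher as well, with sums of 370 to 546 and 336 to 507 that are mostly Slc6a5, at 393.375 and 375.625 with a log2 fold change of 0.07. The Hox genes among them were low and further apart, and 1, Hoxb4, had an unadjusted p under 0.01, at 7.25 ± 2.76 and 2.625 ± 2.07 (SD, n = 8 each) with a log2 fold change of 1.4 (limma, adjusted p = 0.165). Hoxb5 was at 9.375 ± 6.07 and 4.5 ± 2.27 with a log2 fold change of 0.72 (limma, adjusted p = 0.870), and Hoxc4 had 0.27. The part of astrocyte, microglia, erythrocyte and caudal markers in the values of Serpina3n and the others was not tested.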

How the data were processed

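Per the labels, total RNA of whole brain from 16 mice, 8 of each genotype, was made into stranded, ribosomal RNA-depleted libraries. The authors aligned reads to GRCm39 with STAR 2.7.10b, counted them per gene with summarizeOverlaps and tested with DESeq2 1.40.2. The authors deposited linear normalized values, rounded to whole numbers and treated here as a score, since their normalization is not given in the sources used here. The 16 tables of single mice equalled the table of all mice. Depth factors between libraries, 0.7715 to 1.2785, were estimated from the whole numbers that rounding skips, so depth limits all low values and intervals do not cover rounding.

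Genes with a sum of values over 16, and with values over 5 in 4 or more animals of either genotype, were tested with limma 3.58.1 (lmFit, eBayes with trend and robust) on log2(value + 1), with the genotype as the only term and Benjamini-Hochberg adjustment. Fold changes are on that scale, which understates those of low genes. Single genes were also tested by two-sided exact permutation of 12870 splits. A count test had been set for raw counts and was not used, because the values are normalized. The fit was tested on simulated data. The members and lists were chosen with earlier results of these data known. Named are all members, Tecpr2, list genes called, list genes of reactive astrocyte, ligand and Stat3 lists at an unadjusted p under 0.01, and the 3 genes most like each member with a mean of at least 50. A few others were chosen after their values were seen, and some marker genes are not reported here by name. Positions and sequences came from GENCODE M21 (GRCm38) and RefSeq (GRCm38.p6), not the build of the alignment, and symbols matched 52017 of 55404 genes. The libraries are of separate mice. Other filters, pseudocounts, scaling, variance estimates, a replicate block and leaving out each mouse were tried.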

Additional observations from a re-analysis of the deposited data

Results flagged for a closer look

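Lcn2 in wt/wt mouse 7 had a normalized value of 7, against 0 to 3 in the other wt/wt mice. The gap to its nearest neighbour was 0.571 of the whole range of the group, above the critical value of Dixon's test for 8 values at the 95% level. It was the 1 such value among 20 groups looked at, the 10 genes in each genotype, and chance alone flags about 1 in 20 groups. In that mouse the 10 neutrophil markers summed to 25, within the wt/wt range of 7 to 31. The part of those cells in the value was not tested.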

How the results depend on the processing

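Across 22 alternative settings, 16 of which left out 1 mouse each, 0 of the 9 tested genes were called (limma, lowest adjusted p 0.252, of Serpina3n without wt/wt mouse 1). Of 198 values of single genes under these settings 193 kept their direction, and 5 turned. Steap4 turned to 0.01 and 0.09 when mouse 2 or mouse 4 of the Tecpr2 ki/ki group was left out, and to 0.01 and 0.03 when mouse 5 or mouse 6 of the wt/wt group was, over a range of -0.13 to 0.09. Emp1 turned to 0.05 without Tecpr2 ki/ki mouse 2, over a range of -0.16 to 0.05. Leaving out 1 mouse moved other values, none of them called, by over 1.5 times. Osmr went from 0.09 to 0.04 without Tecpr2 ki/ki mouse 3, and to 0.05, 0.03 and 0.15 without wt/wt mouse 2, 7 or 8. Timp1 went from 0.09 to 0.17 and 0.04 without Tecpr2 ki/ki mouse 1 or 6, and to 0.04 and 0.14 without wt/wt mouse 2 or 3. Cd109 went from -0.10 to -0.05 without Tecpr2 ki/ki mouse 3, and to -0.06 and -0.17 without wt/wt mouse 2 or 6. S100a6 went from 0.20 to 0.11 without wt/wt mouse 1 or 4, Cd44 from -0.12 to -0.07 without Tecpr2 ki/ki mouse 7, and S1pr3 from 0.08 to 0.05 without wt/wt mouse 4. The median of the 9 went from 0.08 to 0.04 without Tecpr2 ki/ki mouse 3 or 6, and to 0.04, 0.05 and 0.03 without wt/wt mouse 2, 4 or 7. The count of genes called over all genes was 20 with no filter, where 41926 genes were tested, and 25 to 40 when single mice were left out.

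The replicate numbers of the labels were tried as a block, which called 46 genes, against 31 in the main fit, and 0 of the members. Mice with the same number correlated at -0.0393 to 0.149 over 13765 genes, with 1 of 8 pairs over 0.1. Of the 16 mice, 5 were closest to their own number. Whether the numbers mark pairs is not settled by these values, and the main fit did not use them. Differences under the smallest callable fold of each gene could not be called at this depth and spread between mice.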
